A study of Mus musculus with 22 samples.

Results

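Cytosolic ribosomal proteins were followed in left ventricles of mice that carry a VCP transgene and of their wild-type counterparts, after a sham operation or after transverse aortic constriction (TAC), which narrows the aorta and loads the left ventricle with pressure. Members were all protein-coding genes present in both deposited expression tables whose mouse symbol names a large-subunit protein (Rpl with a number), a small-subunit protein (Rps with a number), a stalk protein (Rplp0, Rplp1, Rplp2) or Rpsa. The rule gave 80 genes of the 30735 in the tables, 49 of the large and 31 of the small subunit. It used symbols only and no measured value. Rps4l and Rpl6l carry fitting symbols but are annotated as pseudogenes and were not taken.

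The 22 libraries came from FVB mice aged 3 to 5 months, and the groups were wild type (WT) sham (n = 4), VCP TG sham (n = 4), WT 2 weeks after TAC (n = 4), VCP TG 2 weeks after TAC (n = 3), WT 5 weeks after TAC (n = 4) and VCP TG 5 weeks after TAC (n = 3). Sham hearts were collected at 2 weeks, and the 5-week groups, for which no sham group was analysed here, stand in a separate table, so every test stayed within a table. Which promoter drives the transgene was not stated in the labels. Levels are TPM, a gene's share of all transcripts once its length is allowed for. They sum to 1000000 in each library and keep no sequencing depth, so the depth behind each value is unknown. Nothing in the labels says whether libraries of a group came from separate animals, and the p-values rest on the spread among libraries, which may be technical.

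The cytosolic ribosome translates nuclear-encoded mRNAs and is built in the nucleolus from ribosomal RNA and a set of proteins made in closely matched amounts. In vertebrates the mRNAs of these proteins typically begin with a cytosine followed by a run of pyrimidines, the 5′ terminal oligopyrimidine tract, through which mTOR signalling and LARP1 set their translation. Striated muscle carries a paralogue, Rpl3l, that can take the place of Rpl3 in the large subunit, and cardiac hypertrophy is known for increased protein synthesis.

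The libraries were uneven in ways that bear on these genes. Vcp ranged from 45.6 to 82.6 TPM in WT sham and from 73.5 to 186 TPM in VCP TG sham, and replicate 4 of VCP TG sham (73.5 TPM) thus lay inside the WT sham range. After TAC the level also went against the label in 4 libraries, replicate 1 of WT at 2 weeks (119 TPM), replicates 2 (123 TPM) and 3 (107 TPM) of WT at 5 weeks, and replicate 3 of VCP TG at 5 weeks (39.1 TPM). Ventricular markers were high everywhere, with Myh6 between 2112 and 7791 TPM and Myl2 between 2293 and 7387 TPM. Among VCP TG sham, 6 atrial markers summed to 10591 TPM in replicate 3 and to 1724 TPM in replicate 4. At 2 weeks of TAC they summed to 9595 TPM in replicate 1 of WT and to 4068 TPM in replicate 2 of VCP TG, and all other libraries were at 560 TPM or below. Mitochondrial transcripts took 27.9% to 72.8% of all TPM. In bulk tissue, fewer cells of a type and less RNA per cell cannot be told apart.

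The start sites of members are shown because the pyrimidine run at the first transcribed base is the feature these mRNAs are known for. RefSeq (GRCm38.p6) start sites were at hand for 60 of the 80 members, and 13 of these 60 (21.7%) had, at a listed start, a C followed by at least 4 bases that are each C or T, read on the transcribed strand only. The same was true of 18.1% of the 72 entries of members and of 2.51% of all 32851 entries of the table. In the windows below, 15 bases before and 15 from the start, capitals mark the run.
Rps6, chr4:86857353-86857382, minus strand: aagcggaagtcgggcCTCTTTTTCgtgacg
Rps18, chr17:33955651-33955680, minus strand: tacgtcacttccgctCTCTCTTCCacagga
Rpl28, chr7:4792950-4792979, plus strand: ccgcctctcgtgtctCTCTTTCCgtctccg
Rpl35, chr2:39005117-39005146, minus strand: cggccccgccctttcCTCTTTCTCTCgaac
Rpl15, chr14:18270972-18271001, minus strand: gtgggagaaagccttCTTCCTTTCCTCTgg
Rplp2, chr7:141447636-141447665, plus strand: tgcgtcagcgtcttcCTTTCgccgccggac
The run was 9 bases long in Rps6 (the subunit protein that S6 kinase phosphorylates) and in Rps18, 8 in Rpl28, 11 in Rpl35, 13 in Rpl15 and 5 in Rplp2. A listed start without the run says only that these letters are not at that base.

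In WT sham the listed levels of the members ran from 0 TPM to those of Rpl28, a large-subunit protein. Among the highest were Rpl28 (528 ± 98.7 TPM, SD, n = 4), Rpl36 (503 ± 131), Rpl26 (429 ± 94.0) and Rps15 (358 ± 68.4). The spreads of these genes overlapped. At the other end, Rpl10l, Rps12 and Rps27 were listed at 0, Rpl39l at 0.231 ± 0.242 TPM and Rpl29 at 3.90 ± 0.587 TPM. Rps12 and Rps27 were at 0 in all 22 libraries, although both encode proteins of the cytosolic ribosome. The testis-enriched paralogues Rpl10l and Rpl39l reached at most 0.27 and 1.17 TPM in any library, against 58.2 to 250 TPM for Rpl10 and 35.6 to 178 TPM for Rpl39. Rps27l, a paralogue of Rps27, lay between 27.2 and 93.7 TPM, and Rps4x between 73.7 and 194 TPM.

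For Rps12, Rps27 and Rpl29, but not for Rpl10l and Rpl39l, near-identical copies elsewhere in the genome carried the TPM. A copy was any other gene of the tables whose GENCODE M21 (GRCm38) transcript was at least 95% identical to a member's over at least 70% of the copy's length. There were 459 copies of 73 members, 449 of them annotated as pseudogenes and 9 as protein-coding, with up to 44 for a member. The member itself held under 50% of the TPM of gene and copies, by its median over libraries, for 13 of the 80 members, 50% to 90% for 6 and over 90% for 61. Rps12-ps3, on chromosome 19 and annotated as protein-coding, was 100% identical to an Rps12 transcript over its whole length and held 263 to 736 TPM. Rps27rt held 231 to 748 TPM. With the copies added, Rps12 stood at 418 ± 87.2 TPM and Rps27 at 417 ± 108 TPM in WT sham, the fifth and the sixth highest of the members.

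Stretches of 90 bases of a member's coding sequence show how little separates it from its copy. Capitals mark the bases that differ between the paired lines. The stretches were taken where the pair differs most, and the coordinates are those of the whole genes.
Rps12 (chr10:23785183-23787275, minus strand): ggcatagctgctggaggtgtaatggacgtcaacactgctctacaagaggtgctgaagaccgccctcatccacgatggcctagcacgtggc
Rps12-ps3 (chr19:59322290-59322783, plus strand): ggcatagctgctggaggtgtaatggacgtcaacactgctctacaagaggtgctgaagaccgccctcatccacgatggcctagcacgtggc
Rpl29 (chr9:106429454-106431568, plus strand): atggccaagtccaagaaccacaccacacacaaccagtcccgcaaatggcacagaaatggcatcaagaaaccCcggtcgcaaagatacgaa
Gm13841 (chr5:115801677-115802159, minus strand): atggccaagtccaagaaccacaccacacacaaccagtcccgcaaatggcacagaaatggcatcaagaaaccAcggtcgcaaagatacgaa
Rps18 (chr17:33951999-33956001, minus strand): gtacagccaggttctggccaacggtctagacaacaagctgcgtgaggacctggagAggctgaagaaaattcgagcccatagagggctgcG
Gm10260 (chr13:97760072-97760632, minus strand): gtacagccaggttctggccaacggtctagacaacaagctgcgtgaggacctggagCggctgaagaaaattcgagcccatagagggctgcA
The Rps12 pair had no difference in 387 aligned coding bases. The Rpl29 pair differed at 3 of 483 aligned bases and the Rps18 pair at 4 of 459. A read that covers none of these bases cannot tell gene from copy.

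The library WT 5 weeks TAC replicate 4 divided the TPM differently from the other 21. There, 8 members (Rpl29, Rps2, Rps18, Rpl34, Rps7, Rpl35a, Rpl3 and Rpl30) held a share of gene and copies more than 20 percentage points above the highest share in any other library. Rpl29 held 96.1% there and 1.18% to 10.3% elsewhere, which in TPM was 190 against 2.62 to 12.9. Its copy Gm13841 was at 2.79 TPM there and at 18.5 to 140 elsewhere. The copies of Rpl34 summed to 0.432 TPM there and to 32.8 to 114 elsewhere. In that library 21 genes were under 1 TPM while above 5 TPM in each of the others, and 15 of them are annotated as pseudogenes. No other library had more than 1 such gene. Rplp0, the stalk base protein that is often used as a reference gene, was at 7.12 TPM there, and adding its copies gave 19.6 TPM against 50.3 to 164 elsewhere. Values below are those of the deposited entries unless copies are said to be added.

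**Figure D1:**
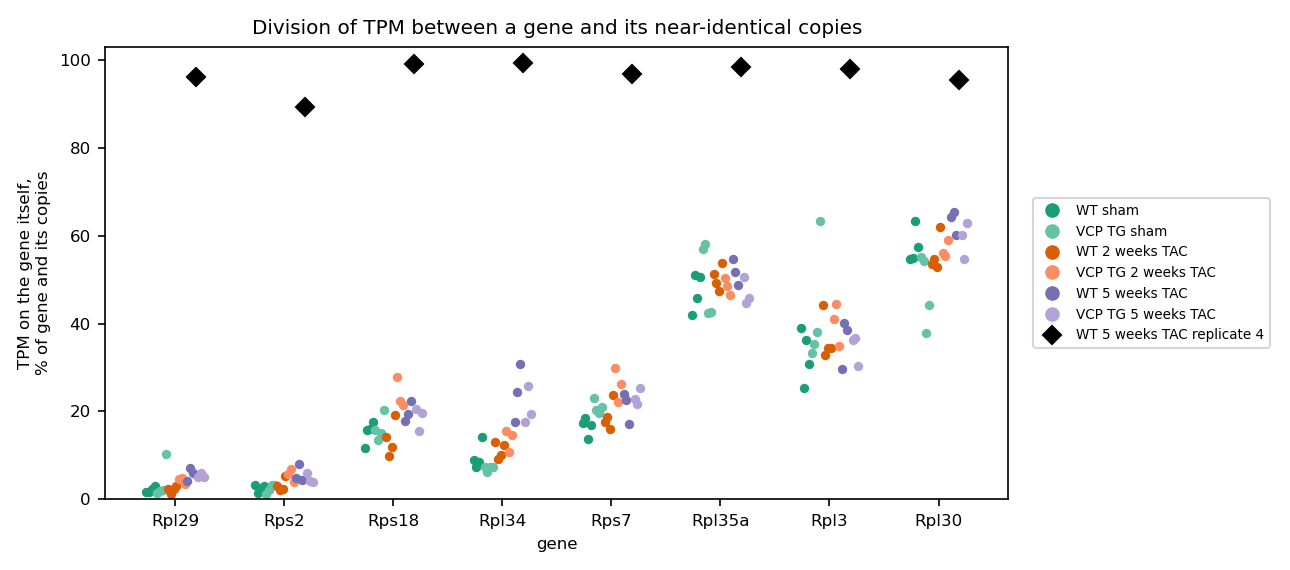
Share of TPM held by the gene itself, as a percentage of the gene and its copies (vertical axis), for the 8 members (horizontal axis); each point is a library coloured by group. The black diamonds, WT 5 weeks TAC replicate 4, lie between 89.3% for Rps2 and 99.3% for Rpl34, above all other libraries.

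With copies added, members moved together from library to library, and much of that movement was inside groups. The median member, on the log2(TPM + 1) scale against the WT sham mean, stood at 0.19, 0.37, -0.08 and -0.47 in WT sham replicates 1 to 4. It stood at 0.31, 0.07, -0.44 and -0.56 in the 4 WT libraries at 5 weeks. Nuclear protein-coding genes took 34.5%, 40.4%, 33.6% and 28.2% of all TPM in WT sham replicates 1 to 4. In the 4 WT libraries at 5 weeks they took 34.6%, 36.8%, 30.2% and 28.1%. The part of this share in the members' common movement was not tested. VCP TG sham replicate 4, the library with most mitochondrial transcripts, scattered most: the interquartile range of its members' deviations was 1.23 on the log2 scale, against 0.16 to 0.58 in the other 21 libraries. Rpl14 and Rpl13 tracked the median member closest (SD of the log2 difference over 22 libraries 0.09 and 0.11), and Rps14, Rplp0, Rps29, Rps13 and Rps24 least (SD 0.50 to 0.56). The large-to-small subunit ratio of summed TPM stayed between 1.42 and 1.66 in all libraries.

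**Figure D2:**
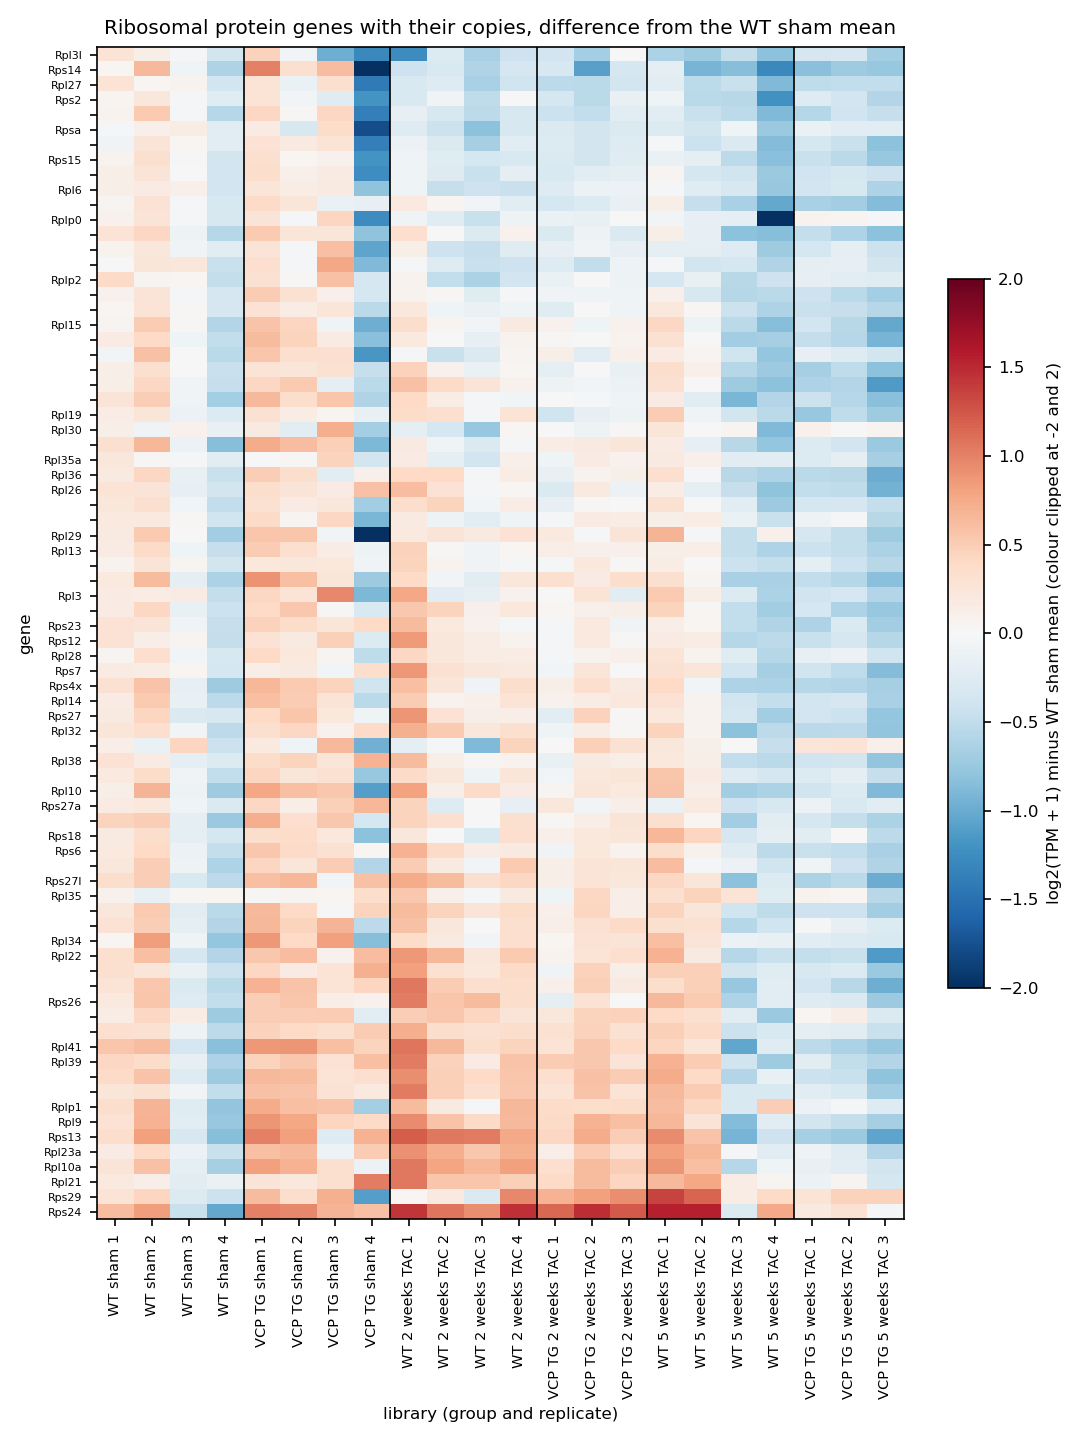
Log2(TPM + 1) of each of 78 members, copies added, minus its WT sham mean (colour), by gene (rows, with names only for genes named in the text) and library (columns, black lines between groups). Most columns have 1 dominant colour from top to bottom, and VCP TG sham replicate 4 holds both strong blue and strong red cells.

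Rpl3l was above the deposited Rpl3 entry in all 22 libraries. With the copies of Rpl3 added, Rpl3 was above Rpl3l in VCP TG sham replicate 3 (84.5 against 51.2 TPM) and in replicate 1 of WT at 2 weeks of TAC (74.2 against 42.0 TPM). In WT sham it stood at 123, 110, 100 and 78.2 TPM in replicates 1 to 4, and Rpl3 at 18.9, 12.1, 17.6 and 9.40 TPM, a ratio of 5.72 to 9.12. In VCP TG sham the ratio was 7.36, 5.33, 1.60 and 2.86. At 2 weeks of TAC it was 1.28, 6.98, 4.92 and 4.83 in WT and 4.38, 2.72 and 7.98 in VCP TG. The 4 libraries with high atrial markers were thus those with ratios of 1.60, 2.86, 1.28 and 2.72, all below every other library of the 2-week table, and the part of atrial tissue in the ratio was not tested. At 5 weeks the ratio was 3.54, 3.30, 5.31 and 2.14 in WT and 6.84, 6.58 and 7.29 in VCP TG, with no overlap between the groups.

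The test of the log2 ratio of (Rpl3l + 1) to (Rpl3 + 1) reached no adjusted p under 0.05 in the 5 comparisons made. At 5 weeks VCP TG stood at 2.68 ± 0.05 (SD, n = 3) and WT at 1.71 ± 0.51 (SD, n = 4), a difference of 0.97 (exact two-sided permutation p = 0.0571, the smallest that 3 against 4 libraries allow; Benjamini-Hochberg adjusted p = 0.19 over the 5). All 3 VCP TG libraries were above all 4 WT libraries, also with the copies of Rpl3 added (difference 0.59, exact permutation p = 0.0571). The Rpl3 entry stood at 10.9 ± 2.03 TPM in VCP TG (n = 3) and 19.4 ± 5.40 TPM in WT (n = 4) without overlap. With copies added the ranges, 28.3 to 33.8 and 27.3 to 62.5 TPM, overlapped, and so did those of Rpl3l (74.9 ± 10.6 and 64.3 ± 6.60 TPM). WT TAC minus WT sham gave -0.91 (exact permutation p = 0.0857) and VCP TG sham minus WT sham -0.96 (exact permutation p = 0.114). Without the libraries with high atrial markers these differences were -0.40 and -0.19. VCP TG TAC minus VCP TG sham and the genotype difference at 2 weeks of TAC were 0.31 and 0.26 (exact permutation p = 0.686 and 0.8). The first was -0.081 without VCP TG sham replicate 3 and also without VCP TG TAC replicate 3, and the second -0.25 without WT TAC replicate 1 and -0.13 without VCP TG TAC replicate 3.

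**Figure D3:**
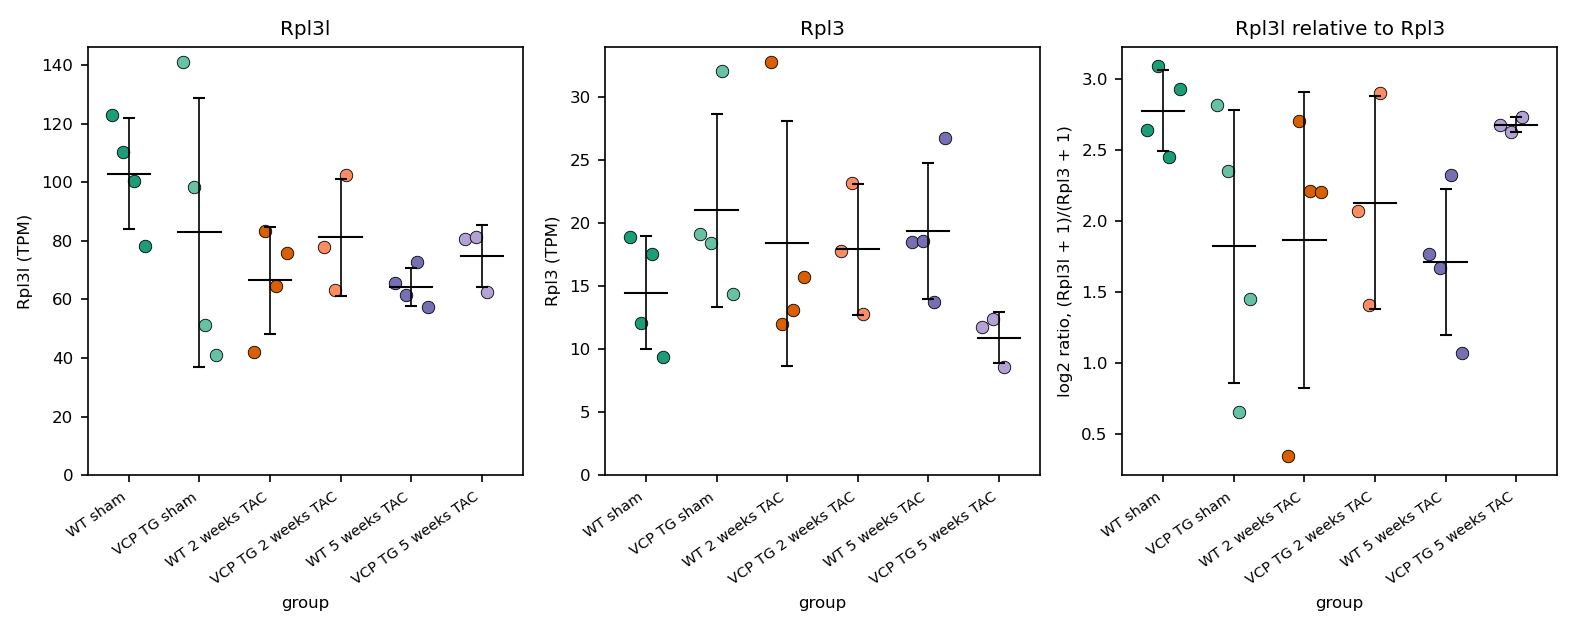
TPM of Rpl3l and of Rpl3 and the log2 ratio between them (vertical axes) by group (horizontal axis); points are libraries, long bars the group means and error bars the SD. In the ratio panel the 3 VCP TG libraries at 5 weeks lie above the 4 WT libraries at 5 weeks.

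The sequences of Rpl3 and Rpl3l are far enough apart that reads can be told apart: 74.4% identity over 1189 aligned coding positions. Capitals mark the bases that differ in the most divergent 90-base stretch, with 34 differences, and the coordinates are those of the whole genes.
Rpl3 (chr15:80077791-80091868, minus strand): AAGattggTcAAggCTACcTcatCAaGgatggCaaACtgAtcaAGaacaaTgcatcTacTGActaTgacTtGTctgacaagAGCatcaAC
Rpl3l (chr17:24727820-24736143, plus strand): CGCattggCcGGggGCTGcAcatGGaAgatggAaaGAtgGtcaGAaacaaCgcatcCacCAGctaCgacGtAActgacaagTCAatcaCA

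In sham hearts, no member passed the test between genotypes (limma, adjusted p under 0.05, 76 of 80 members tested), and 0% of all 15540 genes tested did. At an unadjusted p under 0.05, 3 members were higher and 0 lower in VCP TG (290 and 326 of all genes). The median member differed by 0.19 on the log2 scale and 59 of 76 were positive, against a median of -0.01 over all genes. Rps24 (a small-subunit protein mutated in Diamond-Blackfan anaemia) had the largest difference, 0.81 ± 0.32 (SE), followed by Rpl41 (0.70) and Rpl9 (0.62), and the lowest were Rpl3l (-0.46), Rpl27 (-0.42) and Rpsa (-0.40). Rpl21 was the only member whose groups did not overlap (higher, 1 of 76, against 0.605% of all genes). No member was lower without overlap (0.431% of all genes). The median member was 0.41 without the libraries with high atrial markers, 0.33 without VCP TG sham replicate 4, 0.08 without VCP TG sham replicate 1 and 0.03 without WT sham replicate 4.

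Between WT TAC at 2 weeks and WT sham, no member and 0% of all genes passed the limma test, and 14 members were higher and 1 lower at an unadjusted p under 0.05 (457 and 1316 of all genes). The median member differed by 0.23 and 52 of 76 were positive, against a median of -0.13 over all genes. In the same comparison 5 endothelial markers summed to 206 to 284 TPM in WT sham and 156 to 167 in WT TAC, and 5 macrophage markers to 46.5 to 96.4 and 70.3 to 199 TPM. Their part in the members' values was not tested. Rps24 stood at 437, 508, 208 and 138 TPM in WT sham and at 764, 595, 541 and 782 TPM in WT TAC. The groups did not overlap, and the difference was 1.23 ± 0.32 (SE, limma adjusted p = 0.273), the smallest adjusted p of any member. Rps13, a small-subunit protein, stood at 286, 399, 180 and 124 TPM in WT sham and at 520, 471, 461 and 380 in WT TAC (difference 1.01 ± 0.32), which overlap because the highest sham value exceeds the lowest TAC value. Rpl10a (0.83), Rpl23a (0.72) and Rpl21 (0.69), all of the large subunit, followed.

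Those with the lowest differences in WT TAC were Rpl27 (-0.68), Rpl3l (-0.65), Rpsa (-0.46), Rps14 (-0.42) and Rplp2 (-0.37). Rpsa, which is also known as the laminin receptor, was at 96.0, 105, 108 and 84.4 TPM in WT sham and at 81.7, 72.2, 54.9 and 78.4 in WT TAC, without overlap. Without overlap, 5 members were higher (6.58%, against 2.48% of all genes, among them Rps24, Rpl10a, Rpl23a and Rpl21) and 2 lower (2.63%, against 13.7%: Rpl27 and Rpsa). With copies added and each library centred on its median member, a setting chosen after seeing the data, 4 of 78 members were called. Rps24 (0.98) and Rpl10a (0.60) rose relative to the median member, and Rplp2 and Rpl6 fell by 0.60 and 0.59. In that setting 0.194% of all genes were called higher and 12.7% lower. The Spearman correlation of the difference with the GC content of the transcript was -0.28 across 78 members and -0.43 across 13574 protein-coding genes. These points share their libraries, and the part of GC content was not tested. The median member was 0.13 without WT TAC replicate 1 and 0.08 without WT sham replicate 4.

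**Figure D4:**
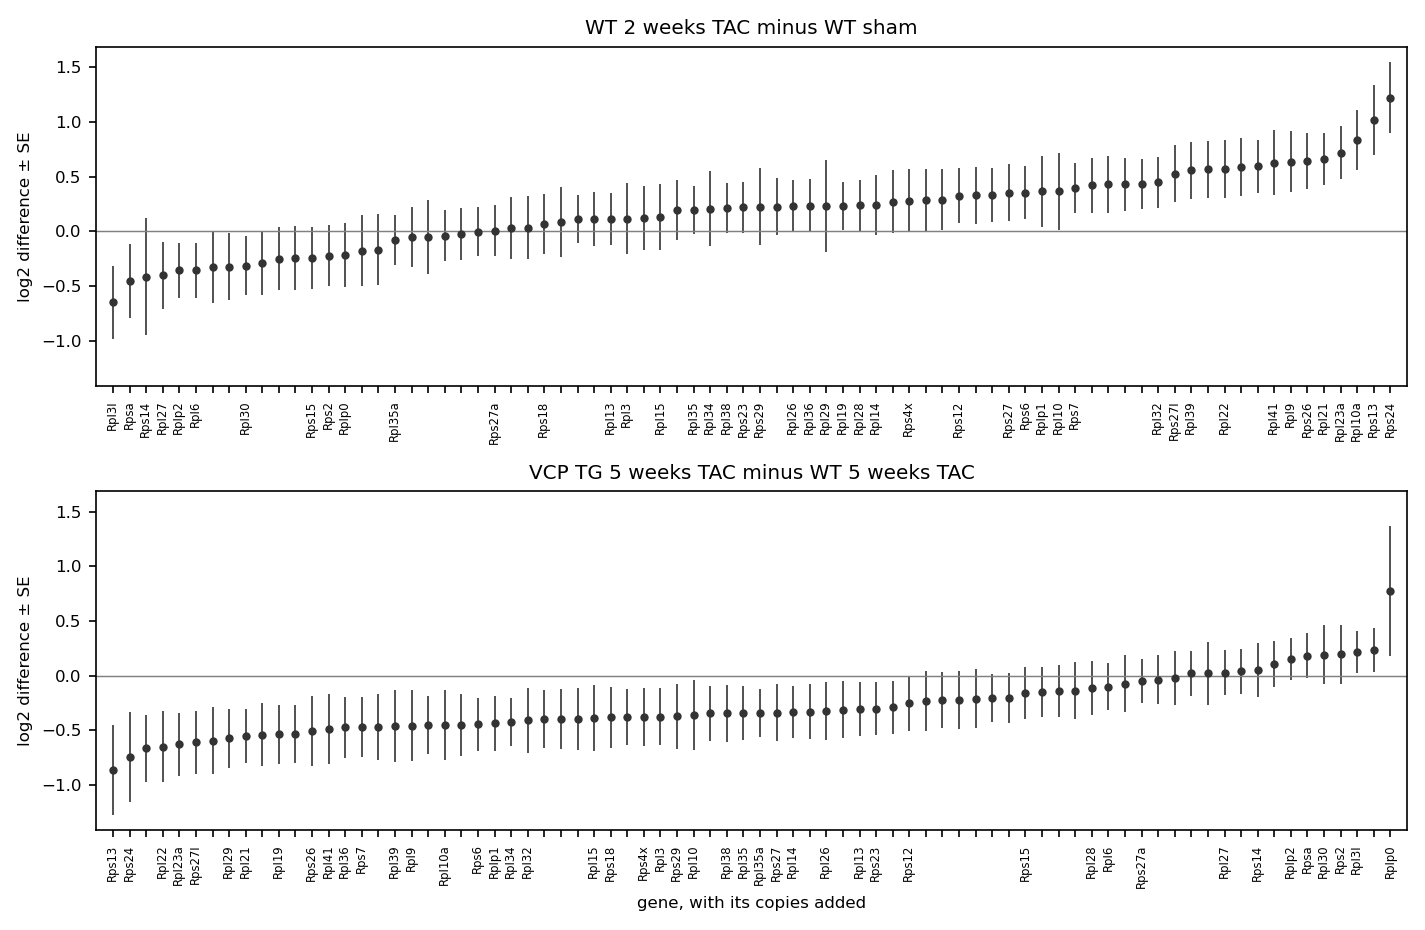
Log2 difference with its SE (vertical axis) for each member with copies added (horizontal axis, with names only for genes named in the text), WT 2 weeks TAC minus WT sham above and VCP TG minus WT at 5 weeks of TAC below, each sorted. Rps24 lies farthest right above, and Rplp0 lies farthest right below with the widest bar.

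Between VCP TG TAC at 2 weeks and VCP TG sham, no member passed (limma), against 0.772% of all genes, and 4 members (Rps2, Rps18, Rpl29 and Rpl34) were higher and 0 lower at an unadjusted p under 0.05 (1243 and 120 of all genes), and 0 and 0 with copies added. The median member differed by -0.09, with 25 of 76 positive, and all genes by 0.02. Without the libraries with high atrial markers these were -0.39 and -0.12 (12 of 76 positive). Rps2 (1.09 ± 0.34), Rps18 (0.70 ± 0.30), Rps29 (0.69) and Rps24 (0.48) had the largest values, and Rpl29, under the level of 10 TPM set for ranking, 0.88 ± 0.26. Rps2, Rps18 and Rpl29 held a median of 3.55%, 17.7% and 3.30% of the TPM of gene and copies, and with copies added Rps2 was at -0.04 ± 0.30, Rps18 at 0.15 and Rpl29 at 0.38 ± 0.45. Rps2 alone was called without VCP TG sham replicate 3 (1.27, limma adjusted p = 0.0335). Calls over all genes in that fit are not reported here. Rpl29 alone was called when no low gene was filtered out (limma adjusted p = 0.0437), 1 of 78 members, against 1846 of 29528 genes. The lowest were Rps14 (-0.49), Rpl26 (-0.41), Rps27a (-0.39), Rpl38 (-0.38) and Rps23 (-0.36). Without overlap 5 members were higher (Rps24, Rps29, Rps18, Rpl29 and Rps2: 6.58%, against 3.35% of all genes) and 2 lower (Rps27a and Rpl38: 2.63%, against 0.676%). With copies added these were 1 (Rps24) and 2 (Rpl38 and Rps23) of 78 members, with all genes not recounted in that setting.

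Between genotypes at 2 weeks of TAC, no member passed (limma), against 0.0901% of all genes, and 2 were higher (Rpl29 and Rps18) and 1 lower (Rps26) at an unadjusted p under 0.05 (1436 and 52 of all genes), and 0 and 1 with copies added. The median member differed by -0.08 where all genes differed by 0.16. Rps26 was at 429, 312, 327 and 270 TPM in WT and at 182, 259 and 212 in VCP TG, a difference of -0.61 ± 0.28 (SE) without overlap. Rps13 (-0.47), Rpl19 (-0.46), Rpl35 (-0.45) and Rpl32 (-0.42) came next, and Rps18 (0.92), Rps2 (0.69) and Rps29 (0.60) were the highest. Without overlap 11 members were lower (14.5%, against 2.78% of all genes) and 2 higher (Rpl29 and Rps18: 2.63%, against 19.0%). With copies added these were 9 and 0 of 78 members, with all genes not recounted in that setting. Rps18 was then at 0.12 and Rps2 at -0.12. The test of the difference in TAC response between genotypes called no member (limma; 0.00644% of all genes), with 1 member higher (Rps2) and 6 lower at an unadjusted p under 0.05 (628 and 151 of all genes), and 0 and 6 with copies added. The median was -0.28, against 0.22 over all genes. Rps13 (-1.04), Rpl41 (-0.92), Rps26 (-0.92), Rpl23a (-0.82) and Rpl22 (-0.81) had the lowest values.

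The median member moved with the scaling in the comparisons that hold VCP TG libraries at 2 weeks of TAC, and so did the median over all genes. With nuclear protein-coding genes made to sum to the same total, the median over all genes moved from 0.16 to -0.17 and the median member from -0.08 to -0.47 between genotypes, and 40 of 76 members (52.6%, against 17.6% of all genes) were lower in VCP TG without overlap. For VCP TG TAC minus VCP TG sham the median member was -0.41 (all genes -0.25), with 11 members lower without overlap (14.5%, against 9.46%). For WT TAC minus WT sham it was 0.25, against 0.23 before rescaling (all genes -0.13 in both). There, 19 members were higher without overlap after rescaling (25.0%, against 4.07%). No member passed the limma test in this scaling either. The mean level of 1460 olfactory and vomeronasal receptor genes, taken as a gauge of background, was 0.109 to 0.197 TPM in WT at 2 weeks of TAC and 0.311 to 0.843 TPM in VCP TG. Its part in the rescaled values was not tested.

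The summed level shows the same values without a model. Members and copies took 4.60% to 5.97% of nuclear coding TPM in WT at 2 weeks of TAC and 2.74%, 4.23% and 3.65% in VCP TG, without overlap. As TPM they summed to 14871 to 20680 and to 14361 to 16325, which overlap. Nuclear protein-coding genes themselves took 32.1% to 34.4% of all TPM in WT at 2 weeks of TAC and 38.4% to 52.2% in VCP TG, also without overlap. In WT sham, members and copies took 3.67% to 4.73% of nuclear coding TPM, and in VCP TG sham 3.82% to 5.53%. At 5 weeks of TAC they took 3.49% to 5.27% in WT and 2.68% to 3.54% in VCP TG, which overlap.

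**Figure D5:**
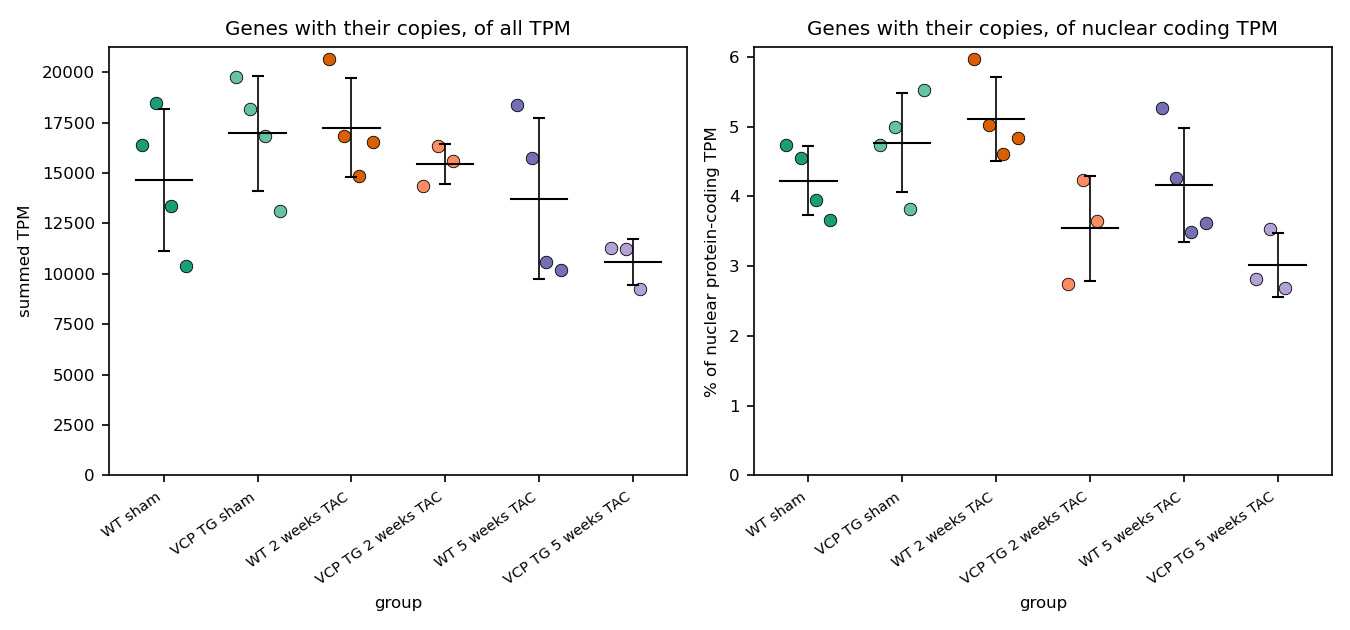
Summed TPM of members and copies (left, vertical axis in TPM) and their percentage of nuclear protein-coding TPM (right) by group (horizontal axis); points are libraries, long bars means and error bars SD. On the right, the 3 VCP TG libraries at 2 weeks of TAC lie below the 4 WT libraries at 2 weeks of TAC.

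Between genotypes at 5 weeks of TAC, no member passed (limma), against 0.00715% of 13986 genes, and 0 were higher and 4 lower (Rpl34, Rpl3, Rpl35a and Rpl21) at an unadjusted p under 0.05 (398 and 230 of all genes), and 0 and 1 (Rpl21) with copies added. The median member differed by -0.37 with 9 of 76 positive, against 0.03 over all genes, by -0.33 without the libraries whose Vcp went against the label, and by -0.19 without WT replicate 1. The deposited entries of Rpl29 (-1.57 ± 1.13, SE), Rpl34 (-1.08), Rps2 (-1.07) and Rps18 (-1.04) were lowest, and Rplp0 (1.09 ± 1.01) highest. Without WT replicate 4 these were -0.57, -0.68, -0.30, -0.58 and 0.16, in that order, and with copies added Rps2 was at 0.19 and Rpl34 at -0.43. Rps13 was then lowest (-0.86 ± 0.41), at 436, 333, 118 and 169 TPM in WT and 140, 134 and 108 in VCP TG. Rps24 followed (-0.74), at 833, 836, 232 and 476 TPM in WT and 320, 351 and 275 in VCP TG. In both genes WT replicates 1 and 2 were high, and WT replicate 3 was below or within the VCP TG range. Without overlap 6 deposited entries were lower (7.89%, against 1.74% of all genes) and 1 higher (Rplp0: 1.32%, against 3.40%). With copies added 2 of 78 members were lower (Rpl21 and Rpl34) and 1 higher (Rplp0), with all genes not recounted in that setting. After rescaling, 19 were lower without overlap (25.0%, against 5.43%).

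The stalk proteins, which recruit elongation factors, and Rps6 were called in no comparison as designed. Rplp1 was at 236 ± 99.2 TPM in WT sham and 288 ± 65.6 in WT TAC at 2 weeks (n = 4 each), Rplp2 at 159 ± 36.0 and 123 ± 28.6, and Rplp0 at 120 ± 19.3 and 102 ± 10.9. Their differences in WT TAC were 0.36, -0.37 and -0.23 on the log2 scale. For Rps6 the sham groups stood at 200 ± 68.3 TPM (WT) and 244 ± 64.0 TPM (VCP TG), and the groups at 2 weeks of TAC at 268 ± 49.8 TPM (WT) and 217 ± 21.9 TPM (VCP TG). Ribosome components whose symbols the rule does not take were Rps3a1 (118 to 346 TPM), Rack1 (98.1 to 192), Fau (74.5 to 183) and Rpl36al (63.5 to 208). The related genes Rpl22l1 and Rpl7l1 lay at 11.8 to 104 and 2.38 to 5.68 TPM.

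Genes around the ribosome were set beside the members. Of 39 translation factors, 0 passed the limma test in any of the 6 comparisons. Their median in WT TAC minus WT sham was -0.08, with Eef1b2 (an exchange factor for elongation factor 1A) at 0.74, Eef2 at -0.73 and Eif3m at 0.69. Of 36 genes of ribosome biogenesis, 0 passed, and the median was -0.23, with Nop10 at 0.83 and Fbl (fibrillarin, which methylates ribosomal RNA) at -0.62. Of 12 genes listed as regulators of the translation of these mRNAs, 0 passed. Their median was -0.51, with Myc at -0.92, Rptor at -0.73 and Akt1 at -0.68. Myc stood at 3.20, 6.01, 10.4 and 18.4 TPM in WT sham and at 5.03, 3.10, 3.92 and 3.18 in WT TAC, which overlap. At an unadjusted p under 0.05 these lists had 3 higher and 2 lower, 1 and 1, and 0 and 3. Over all 15540 genes of WT TAC minus WT sham the median was -0.13, with 457 higher and 1316 lower at that level. Between genotypes at 5 weeks the list medians were -0.18, -0.14 and 0.05, against 0.03 over all genes.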

How the data were processed

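Left ventricular RNA was sequenced from poly(A) libraries (TruSeq Stranded mRNA, per the labels' protocols). The authors deposited TPM per Ensembl gene in 2 tables. Trimmomatic 0.35, kallisto 0.43.1, STAR 2.5.4b and DESeq2 are named in the submitters' processing notes without their roles, and nothing read here says which of them made the TPM. Of 30735 identifiers, 29995 matched GENCODE M21 (GRCm38). Every column was mapped to a sample.

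The members, lists and tests were chosen with earlier results of these data known. Differences are on log2(TPM + 1), which understates changes of low genes. Genes at 1 TPM or more in at least 3 libraries entered limma 3.58.1 (trend, robust), with all groups of a table in 1 fit and Benjamini-Hochberg adjustment over all genes, tested on simulated data. Copies were found with blastn 2.17.0. The Rpl3l ratio was tested by exact permutation (scipy 1.17.1). Named members were Rpl3, Rpl3l, the stalk proteins, Rpsa, Rps6, Rps24 and the low paralogues, up to 5 of the largest differences per direction among members averaging 10 TPM or more, the 5 highest and lowest in WT sham, components outside the rule, and 3 lists of genes around the ribosome. Some genes that this rule takes are not reported here. Others were named after their values were seen (groups that do not overlap, copies, spread). Alternatives covered pseudocount, filter, scaling, moderation, block and left-out libraries. Nothing read here says that libraries with the same number are pairs, and the fits as designed did not pair them. Deviations of same-numbered sham libraries from their group means had correlations of 0.107 to 0.26. In the other comparisons these correlations ran from -0.225 to 0.161.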

Additional observations from a re-analysis of the deposited data

Results flagged for a closer look

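Each library below stood apart from the other 3 of its group by Dixon's test at the 95% level, which was applied to 167 sets of 4 libraries. Chance alone would mark about 1 in 20 such sets if they were independent and normally spread, and 15 values were marked here. The sets share libraries, and a set with 3 libraries at 0 is marked by any other value, so that rate is no yardstick here. WT 5 weeks TAC replicate 4 accounts for 6 of them: Rpl29 at 190 TPM, Rps2 at 140, Rps18 at 133 and Rpl34 at 59.6 were high, Rplp0 at 7.12 TPM was low, and Rpl10l was at 0.0922 TPM where the other 3 libraries were at 0. VCP TG sham replicate 3, the library with the highest summed atrial markers, had low Rps27l (53.4 TPM), low Rpl22 (187 TPM), high Rpl27 (23.3 TPM) and Rpl10l at 0.268 TPM. VCP TG sham replicate 4, the library with most mitochondrial transcripts, had high Rpl21 (546 TPM). WT 2 weeks TAC replicate 1, also rich in atrial markers, had high Rpl21 (545 TPM) and high Rpl38 (491 TPM). WT sham replicate 2 had high Rpl27 (29.0 TPM) and high Rps18 (31.0 TPM).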

How the results depend on the processing

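The count of members called was 0 in all 6 comparisons under all alternatives, with these exceptions. In VCP TG TAC minus VCP TG sham, 1 member was called without the filter on low values, and 0 to 1 when each library was left out. Centring on the median member with copies added, chosen after seeing the data, called 4 of 78 members in WT TAC minus WT sham. It called 16 of 78 when only those groups were fitted, where 3171 of 13650 genes were called. Calls over all genes moved more. In WT TAC minus WT sham they went from 0 to 964 with only those groups fitted and to 1202 without the libraries rich in atrial genes. Without the filter on low values they went from 120 to 1846 in VCP TG TAC minus VCP TG sham and from 14 to 634 between genotypes at 2 weeks.

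The median member kept its sign under each alternative except centring on it, which sets it near 0 by construction (-0.04 in sham and -0.02 in WT TAC). Without the libraries rich in atrial genes it was 0.41 in sham, with 17 members and 887 of 14618 genes higher at an unadjusted p under 0.05, and -0.39 in VCP TG TAC. In sham, the alternative that set libraries aside for their Vcp left out VCP TG sham replicate 1 and kept replicate 4. Rescaling to nuclear protein-coding genes moved it to -0.41 in VCP TG TAC minus VCP TG sham (-0.40 with copies added), to -0.47 between genotypes at 2 weeks (-0.49) and to -0.62 in the difference in TAC response (-0.65). Adding copies was chosen after seeing the data. With each library left out in turn, the median member ran from 0.03 to 0.33 in sham, 0.08 to 0.32 in WT TAC, -0.29 to -0.0068 in VCP TG TAC, -0.15 to -0.0022 between genotypes at 2 weeks, -0.43 to -0.12 in the difference in response and -0.50 to -0.19 at 5 weeks.

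The log2 ratio of Rpl3l to Rpl3 ran from -1.29 to -0.57, -1.19 to -0.40, -0.081 to 0.67, -0.25 to 0.62 and 0.75 to 1.17 in these comparisons, leaving out the difference in response. It changed sign in VCP TG TAC without the libraries rich in atrial genes (-0.097) and without VCP TG sham or TAC replicate 3 (-0.081 each), and between genotypes at 2 weeks without the library whose Vcp went against the label (-0.25) and without VCP TG replicate 3 (-0.13). The cause was not tested.

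A replicate block left the count of members called at 0 in all 6 comparisons. Both sham groups hold the same replicate numbers, so the block cannot change their difference, and the median member stayed at 0.19. Where the groups do not hold the same numbers, the block moved the median member. It went from -0.09 to -0.22 in VCP TG TAC minus VCP TG sham and from -0.08 to -0.20 between genotypes at 2 weeks. In the difference in response it went from -0.28 to -0.38, and at 5 weeks from -0.37 to -0.48. With the block, 32 members were lower at 5 weeks at an unadjusted p under 0.05 (limma) instead of 4, and 1069 of all genes instead of 230. The libraries are known to share only a number. The deposited TPM give no depth, so no limit of detection could be set.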
